A study of Mus musculus with 10 samples.

Results

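The imprinted genes described here are 37 mouse genes chosen by name from a list of known imprinted loci, of 47729 genes in the count table. All 37 were matched by Ensembl gene ID to the GENCODE vM21 annotation (GRCm38). They lie in 18 imprinted clusters or loci on 10 chromosomes, with 15 genes on chromosome 7, 6 on chromosome 6 and 6 on chromosome 12. Of the 37, 32 are protein coding and 5 are noncoding RNAs. By the allele they are known to express, 20 were listed as paternal, 14 as maternal, and 3 (Grb10, Gnas and Begain) were not assigned, because the expressed allele differs between tissues or transcripts or was not settled here. These labels were taken as known and not measured here. A listed allele need not hold in every cell type, as Ube3a, listed as maternal, is maternal in neurons. The rule used gene names and no measured value, but earlier results of these data were known when genes, lists and tests were chosen.

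The study measured RNA in the brains of male and female CF1 mice (strain label crlfcen:CF1, an outbred stock) at postnatal day 56. Parents received a low-protein diet (LP) or a normal-protein diet (NP) while they were mated, and the dam stayed on it until weaning at day 21. From then on all offspring, LP and NP alike, ate the NP diet for 5 weeks. Hypothalamus was sampled in males, and hippocampus and prefrontal cortex in both sexes, with 1 library for each region, sex and diet. That gave 10 libraries in 5 pairs of LP and NP of the same region and sex. Nothing in the labels says whether a library held 1 animal or a pool, so every p-value measures the spread between these libraries only.

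In most genes both parental copies are used. In an imprinted gene the copy from a given parent is silenced, usually through DNA methylation laid down in the egg or the sperm, and neighbouring imprinted genes are often controlled together from a shared control region. Many imprinted genes act in growth and placental development, and several are known for roles in the hypothalamus, where they bear on feeding, thermoregulation and maternal behaviour. These counts do not separate the parental alleles, so they measure how much RNA a gene gave and not from which copy.

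Sequences upstream of 5 members are shown because their genes recur in the results below. Peg3 and Usp29 are read in opposite directions from a shared stretch, and Zdbf2, Mest and Plagl1 hold the letters TGCCGC (or GCGGCA, the same letters on the other strand), which are printed in capitals. TGCCGC is the core of the motif bound in mouse by ZFP57, a zinc finger protein that keeps methylation on imprinted alleles. Each sequence is the 250 bases before a RefSeq transcription start (GRCm38.p6), 5′ to 3′ on the strand of the gene.
Peg3 (chr7:6730420-6730669, minus strand): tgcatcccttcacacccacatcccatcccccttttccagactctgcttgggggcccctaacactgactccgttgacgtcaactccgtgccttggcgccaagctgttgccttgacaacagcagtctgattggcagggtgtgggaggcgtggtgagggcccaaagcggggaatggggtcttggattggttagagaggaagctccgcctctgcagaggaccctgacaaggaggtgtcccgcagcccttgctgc
Usp29 (chr7:6730333-6730582, plus strand): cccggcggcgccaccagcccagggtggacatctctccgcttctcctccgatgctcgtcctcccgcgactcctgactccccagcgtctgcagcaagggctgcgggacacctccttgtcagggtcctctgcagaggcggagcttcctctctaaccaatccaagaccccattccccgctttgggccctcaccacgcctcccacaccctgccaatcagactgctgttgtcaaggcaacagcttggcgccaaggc
Zdbf2 (chr1:63200108-63200357, plus strand): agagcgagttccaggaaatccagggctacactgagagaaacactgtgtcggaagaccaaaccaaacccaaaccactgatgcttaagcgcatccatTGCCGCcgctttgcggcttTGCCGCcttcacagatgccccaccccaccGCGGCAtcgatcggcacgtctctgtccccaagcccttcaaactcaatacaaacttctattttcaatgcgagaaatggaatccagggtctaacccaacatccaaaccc
Mest (chr6:30737800-30738049, plus strand): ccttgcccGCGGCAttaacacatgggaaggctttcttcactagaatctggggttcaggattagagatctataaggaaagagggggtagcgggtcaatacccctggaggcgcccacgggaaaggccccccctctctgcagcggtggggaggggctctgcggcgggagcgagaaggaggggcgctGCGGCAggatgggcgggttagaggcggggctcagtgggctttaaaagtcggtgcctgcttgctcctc
Plagl1 (chr10:13090582-13090831, plus strand): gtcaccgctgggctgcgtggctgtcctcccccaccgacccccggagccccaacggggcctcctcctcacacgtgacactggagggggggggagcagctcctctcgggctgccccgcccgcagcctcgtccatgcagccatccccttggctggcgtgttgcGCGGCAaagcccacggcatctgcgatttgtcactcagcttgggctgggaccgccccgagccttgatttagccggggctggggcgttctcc

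The windows of Peg3 and Usp29 overlap on opposite strands, and neither holds the motif. The Zdbf2 window printed holds 3 matches, the Mest window 2 and the Plagl1 window 1. The Zdbf2 window lies at a RefSeq start far before the annotated GENCODE gene start (63273265), and the window beside that start (chr1:63273019-63273268) holds 0 matches, as does another Mest window (chr6:30733256-30733505). RefSeq windows were found for 31 of the 37 members (52 windows in all, as several genes have more than 1 start). H19, Peg10, Sgce, Cdkn1c, Impact and Trappc9 had no window. The motif was present in 8 of the 52 windows (15.4%), against 8.68% of 32841 windows of the same length over all genes. These 8 windows belonged to 7 members, namely Zim1, Mest, Calcr, Meg3, Plagl1, Nap1l5 and Zdbf2, and 2 of them are nearly identical Mest windows. By gene, 7 of the 31 members held the motif in any window, against 9.845% of all genes with a window. The median window held 12 CpG dinucleotides in members and 6 over all genes. TGCCGC itself holds a CpG, and the windows of all genes were not matched to those of members in CpG. A match is a description of the letters, and a window without one says nothing about binding elsewhere at the locus.

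Total counts were 7871010 to 16265481 per library. In the female NP hippocampus library the column was empty past Park7 on chromosome 4 and for chromosomes 5 to 9, X, Y and M, so genes there were treated as not measured in it. The 21 members on chromosomes 6 and 7 were therefore compared over 9 libraries, and the other 16 over 10. Levels are in CPM (counts scaled to a common library size), in which 3 counts, the most that a count of 0 allows, were 0.164 to 0.308 CPM. These limits cover counting error only. The 10 hypothalamic markers (such as Pmch, Avp, Oxt and Otp) were all higher in both hypothalamus libraries than in any other library, summing to 651 and 1037 CPM there, 4.12 to 5.83 CPM in hippocampus and 3.11 to 4.58 CPM in prefrontal cortex. All 7 hippocampal markers had their highest mean in hippocampus, and 5 of 7 neocortical markers in prefrontal cortex. The male NP hippocampus library also held pituitary hormone transcripts (Gh at 441 CPM and Prl at 101 CPM), which is given again beside Dlk1.

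The 37 imprinted genes were together far more abundant in the hypothalamus than in the other regions. The 37 genes together took 1.45% and 1.48% of all counts in the LP and NP hypothalamus libraries. They took 0.484% to 0.495% in the 3 complete hippocampus libraries and 0.552% to 0.578% in the 4 prefrontal cortex libraries. Mean CPM was highest in hypothalamus for 29 of the 37 genes, in prefrontal cortex for 7 and in hippocampus for 1 (Igf2r). Of the 35 genes with a mean of at least 10 counts, 24 were higher in both hypothalamus libraries than in every other library, where 27.3% of all genes at that level were. Another 3 (Mkrn3, Snrpn and Dio3) were lower in both than in every other library, where 22.9% of all genes were, and 8 overlapped. H19, Asb4 and Calcr are among the 24 and reached a mean of 10 counts only through hypothalamus, so they had to differ.

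**Figure D1:**
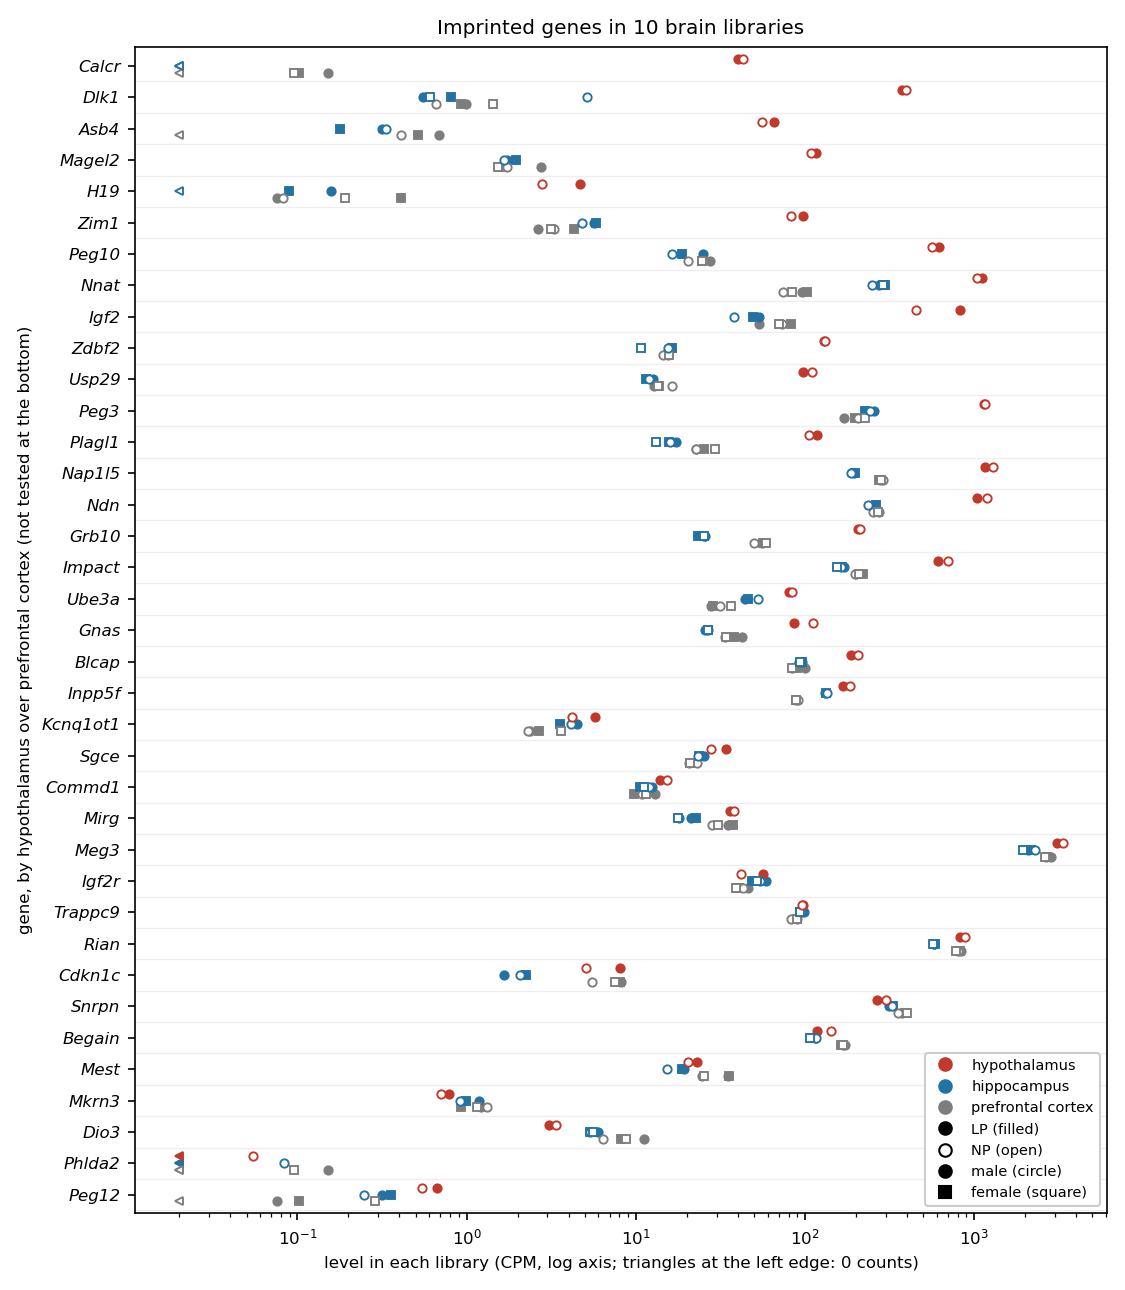
Level of each of the 37 imprinted genes in every library, in CPM on a log axis. Colour gives the region, filled symbols are LP and open symbols NP, circles are male and squares female, and triangles at the left edge are libraries with 0 counts. For genes at the top, the 2 hypothalamus libraries lie far to the right of the others (Dlk1 at 373 and 394 CPM, against at most 5.14 CPM elsewhere).

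Regions were compared gene by gene with edgeR's quasi-likelihood test, with sex and diet as additive terms and p-values adjusted over all genes tested (Benjamini-Hochberg, threshold 0.05). Against prefrontal cortex, 27 of 35 tested members were higher in hypothalamus, 4 were lower and 4 did not pass, while 34.8% of all 17427 genes tested were called higher and 29.3% lower. Against hippocampus, 28 of 35 were higher, 2 lower and 5 not past, while 32.4% of all genes were higher and 28.2% lower. The median log2 difference of the tested members was 1.45 against prefrontal cortex (0.05 over all genes tested) and 1.89 against hippocampus (0.04 over all genes tested). Peg12 and Phlda2 were too low to be tested. H19, Asb4 and Calcr averaged under 10 counts in the other regions and passed the filter through hypothalamus, so they had to differ. Of the 32 members averaging at least 10 counts in both regions compared, 24 were higher and 4 lower against prefrontal cortex, and 25 higher and 2 lower against hippocampus. These 32 include Dlk1, which had 62 counts in the male NP hippocampus library and 7 to 9 in each other hippocampus library. In prefrontal cortex Dlk1 had 8 to 15 counts per library. In bulk tissue, fewer cells that express a gene and less RNA per cell cannot be told apart. A pan-neuronal list (Rbfox3, Snap25, Syt1, Stmn2 and Tubb3) summed to 2474 and 2550 CPM in hypothalamus, 4958 to 5173 CPM in the complete hippocampus libraries and 5401 to 5690 CPM in prefrontal cortex, and 0 of its 5 genes were highest in hypothalamus. Rbfox3, Snap25, Syt1 and Stmn2 were lower in both hypothalamus libraries than in every other library (for Stmn2 386 and 408 CPM against 422 to 529 CPM). Tubb3 differed from them, with 436 and 458 CPM in hypothalamus. That was above the 264 to 286 CPM of the complete hippocampus libraries and within the 387 to 498 CPM of prefrontal cortex. The part of cell composition in the regional differences was not tested.

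**Figure D2:**
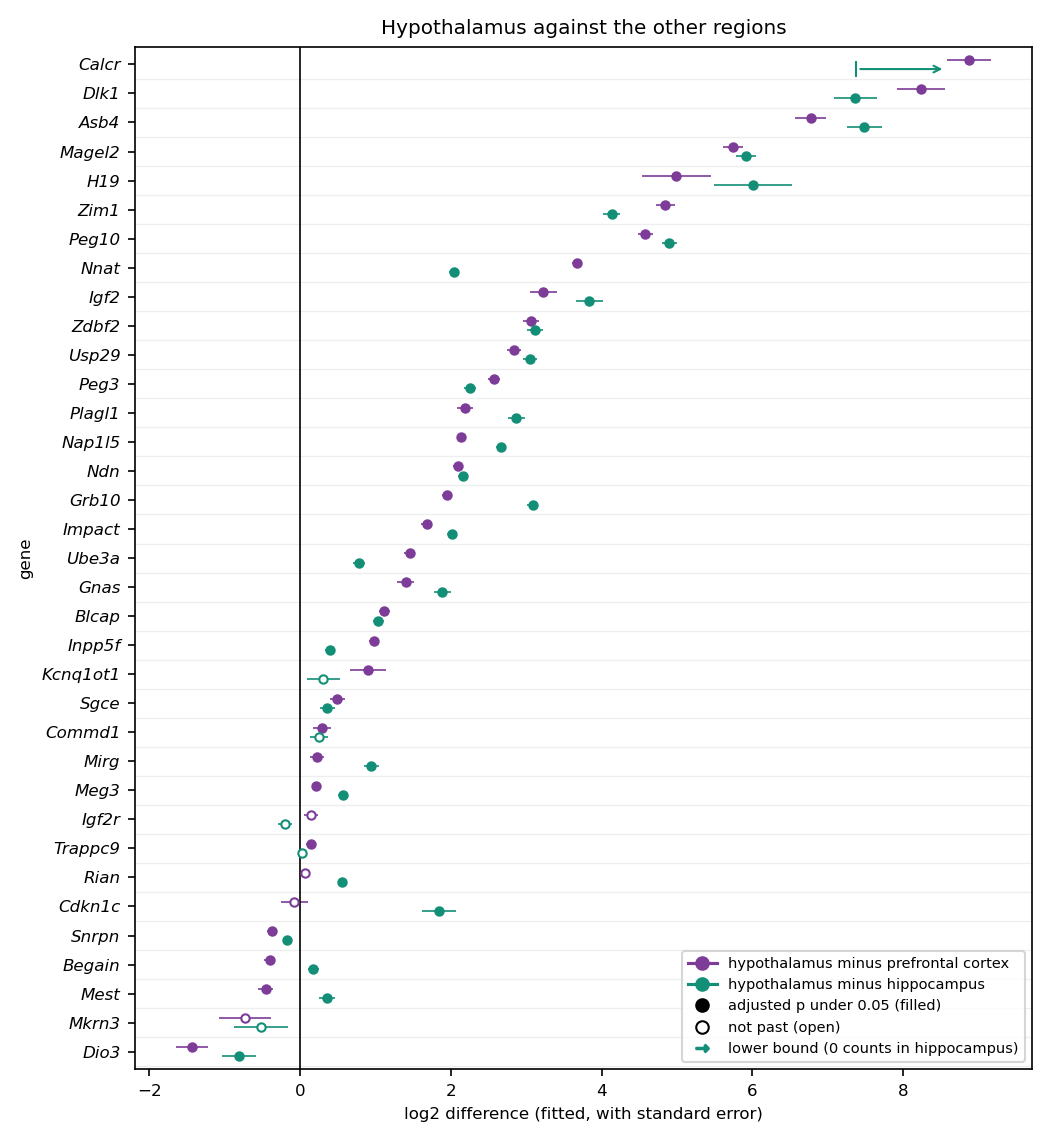
Fitted log2 difference of each tested imprinted gene in hypothalamus against prefrontal cortex (purple) and hippocampus (green), with its standard error; filled points passed the adjusted threshold. Most genes lie right of 0 in both comparisons, and Dio3, Snrpn and Mkrn3 lie left of 0 in both (Mkrn3 without a call); H19, Asb4 and Calcr passed the filter only through hypothalamus, and the arrow for Calcr starts at a lower bound because no hippocampus library had a count.

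The Dlk1-Dio3 cluster on chromosome 12 had members that moved in opposite directions. Dlk1, a non-canonical Notch ligand from the paternal allele, had 373 CPM in the LP and 394 CPM in the NP hypothalamus. In hippocampus it had 0.552 CPM in the male LP, 0.806 CPM in the female LP, 5.14 CPM in the male NP and 0.605 CPM in the female NP library. In prefrontal cortex it had 0.987 CPM (male LP), 0.924 CPM (female LP), 0.655 CPM (male NP) and 1.43 CPM (female NP). The hypothalamus libraries thus did not overlap with any other, and the male NP hippocampus library stood above the rest of its region. Pituitary markers, 8 genes in all, summed to 29.8 CPM in the LP and 109 CPM in the NP hypothalamus, and to 547 CPM in the male NP hippocampus library. Gh and Prl made up most of that 547 CPM (441 and 101 CPM) and were lower in hypothalamus. Cga (5.79 CPM in LP, 7.32 CPM in NP) and Tbx19 (4.58 and 3.49 CPM) were higher in hypothalamus than in that library (1.66 and 0 CPM). The other markers had at most 2.35 CPM in these libraries. The part of pituitary tissue in the hypothalamic Dlk1 level was not tested. Dlk1 was higher in hypothalamus by 8.23 ± 0.31 (log2, ± standard error, adjusted p = 1.87e-11) against prefrontal cortex and by 7.37 ± 0.29 (adjusted p = 2.62e-11) against hippocampus. Without the male NP hippocampus library the second difference was 9.48, and over all alternatives it ranged from 6.69 (without the male LP hippocampus library) to 9.48. The first ranged from 7.74 (without the LP hypothalamus library) to 8.94 (without the NP hypothalamus library).

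At the other end of that cluster, Dio3, the deiodinase that inactivates thyroid hormone, was lowest in hypothalamus. It had 3.08 CPM in the LP and 3.39 CPM in the NP library there. Hippocampus had 5.37 to 5.99 CPM over 4 libraries and prefrontal cortex 6.39 to 11.2 CPM over 4, so the regions did not overlap. Dio3 was lower in hypothalamus, with a log2 difference of -1.44 ± 0.21 against prefrontal cortex (adjusted p = 3.5e-05) and -0.81 ± 0.23 against hippocampus (adjusted p = 0.00675, lost without the LP hypothalamus library).

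The maternally expressed noncoding RNAs of the cluster differed little between hypothalamus and prefrontal cortex. Meg3 had 3104 and 3339 CPM in the LP and NP hypothalamus, 1944 to 2292 CPM in hippocampus and 2625 to 2851 CPM in prefrontal cortex. It was higher in hypothalamus by 0.22 ± 0.06 against prefrontal cortex (adjusted p = 0.00568, lost without the NP hypothalamus library) and by 0.57 ± 0.06 against hippocampus (adjusted p = 1.32e-06). Rian, a host of small nucleolar RNAs, was higher by 0.55 ± 0.05 against hippocampus and did not pass against prefrontal cortex (0.07 ± 0.05). Mirg, a host of microRNAs, was higher by 0.95 ± 0.10 against hippocampus, and its call against prefrontal cortex (0.23 ± 0.09, adjusted p = 0.0471) was lost under 14 of 16 alternatives. Begain, a postsynaptic protein gene at the edge of the cluster, was lower against prefrontal cortex (-0.40 ± 0.07), and its call of 0.18 ± 0.07 against hippocampus was lost under 12 of 16 alternatives.

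In the Peg10-Sgce cluster on chromosome 6, Peg10 and Sgce were higher in hypothalamus against both other regions, and Calcr and Asb4 passed the filter only through hypothalamus. Calcr, the calcitonin and amylin receptor, had 40.4 CPM (669 counts) in the LP and 43.1 CPM (789 counts) in the NP hypothalamus. It had 0 counts in each of the 3 hippocampus libraries in which it was measured, and 4 counts over the 4 prefrontal cortex libraries. Calcr was therefore at least 166-fold higher in hypothalamus than in hippocampus (against 3 counts per library). The ratio of pooled counts to prefrontal cortex was 476.5 (exact 95% interval 186 to 1751, counting error only). Asb4, an ankyrin repeat protein with a SOCS box, had 65.6 and 55.3 CPM in the LP and NP hypothalamus, 0.179 to 0.332 CPM in hippocampus and 0 to 0.683 CPM in prefrontal cortex. Outside hypothalamus Asb4 had at most 9 counts in a library and Calcr at most 2. The ratio of pooled counts of Asb4 was 145 to prefrontal cortex (92.3 to 241) and 216 to hippocampus (117 to 452), counting error only.

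Peg10, a protein derived from a retrotransposon, was well detected everywhere. It had 619 CPM in the LP and 562 CPM in the NP hypothalamus, 16.3 to 25.1 CPM in hippocampus and 20.3 to 27.5 CPM in prefrontal cortex. Peg10 was higher by 4.58 ± 0.10 against prefrontal cortex (adjusted p = 1.69e-15) and by 4.90 ± 0.10 against hippocampus (adjusted p = 9.36e-16). Its head-to-head neighbour Sgce, which encodes epsilon-sarcoglycan, had 34.2 and 27.9 CPM in hypothalamus against 20.7 to 22.9 CPM in prefrontal cortex, a difference of 0.49 ± 0.10. Against hippocampus Sgce differed by 0.36 ± 0.10, a call lost without the LP hypothalamus library. The pair thus shared a direction and differed widely in size.

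In the Prader-Willi and Angelman cluster on chromosome 7, the MAGE family genes were the ones that stood out. Magel2, which encodes a regulator of a ubiquitin ligase complex, had 115 CPM in the LP and 108 CPM in the NP hypothalamus, 1.66 to 1.97 CPM in hippocampus and 1.53 to 2.73 CPM in prefrontal cortex. Ndn (necdin) had 1044 and 1190 CPM in the LP and NP hypothalamus, 237 to 261 CPM in hippocampus and 252 to 274 CPM in prefrontal cortex. Neither gene overlapped between hypothalamus and the other regions. The log2 difference against prefrontal cortex was 5.74 ± 0.13 for Magel2 (adjusted p = 3.14e-15) and 2.09 ± 0.07 for Ndn (adjusted p = 9.61e-14), and against hippocampus 5.92 ± 0.14 for Magel2 and 2.17 ± 0.07 for Ndn.

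The other genes of that cluster behaved differently. Snrpn, a component of the splicing machinery in neurons, had 267 and 299 CPM in the LP and NP hypothalamus, 315 to 331 CPM in hippocampus and 353 to 399 CPM in prefrontal cortex. It was lower in hypothalamus against prefrontal cortex (-0.37 ± 0.06, adjusted p = 4.78e-05), and its call against hippocampus (-0.17 ± 0.06, adjusted p = 0.0234) was lost in male libraries alone and without either male hippocampus library or the LP hypothalamus library. Snrpn shares 34.1% of its exon bases with Snurf and other annotated genes, so its counts are uncertain. Ube3a, the ubiquitin ligase that is maternal in neurons, had 80.0 and 84.1 CPM in hypothalamus, 44.2 to 52.7 CPM in hippocampus and 27.7 to 36.4 CPM in prefrontal cortex. It was higher by 1.45 ± 0.08 against prefrontal cortex and by 0.78 ± 0.08 against hippocampus. The kit does not mark strand, and Ube3a shares 27.3% of its exon bases with Snhg14 and other genes on the opposite strand, so reads of the gene and its antisense partner cannot be told apart. Mkrn3, a makorin ring finger gene, had 9 to 16 counts in every library that measured it and did not pass in either comparison.

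All 3 genes of the Peg3 cluster were higher in hypothalamus. Peg3, a zinc finger protein gene, had 1141 CPM in the LP and 1159 CPM in the NP hypothalamus, 226 to 255 CPM in hippocampus and 169 to 225 CPM in prefrontal cortex. Usp29, which starts beside it on the other strand, had 97.4 and 110 CPM in hypothalamus, 11.6 to 12.7 CPM in hippocampus and 12.8 to 16.5 CPM in prefrontal cortex. Peg3 was higher by 2.57 ± 0.08 and Usp29 by 2.84 ± 0.09 against prefrontal cortex, and by 2.26 ± 0.08 and 3.05 ± 0.09 against hippocampus. Both genes read from the shared stretch printed above were thus higher in hypothalamus, and the difference between them was not tested. Zim1, the maternally expressed zinc finger gene of the cluster, had 96.8 and 82.2 CPM in hypothalamus, 4.81 to 5.82 CPM in hippocampus and 2.66 to 4.31 CPM in prefrontal cortex, a log2 difference of 4.85 ± 0.12 against prefrontal cortex.

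Nnat, which encodes the membrane proteolipid neuronatin, lies in an intron of Blcap and showed a gradient over all 3 regions. It had 1109 CPM in the LP and 1036 CPM in the NP hypothalamus, 249 to 296 CPM in hippocampus and 73.8 to 103 CPM in prefrontal cortex. No region overlapped with another. Nnat was higher by 3.68 ± 0.07 in hypothalamus than in prefrontal cortex (adjusted p = 9.02e-15), by 2.04 ± 0.06 in hypothalamus than in hippocampus (adjusted p = 2.36e-12) and by 1.64 ± 0.05 in hippocampus than in prefrontal cortex (adjusted p = 9.8e-12). Blcap, a small membrane protein gene, was higher by 1.12 ± 0.07 and 1.04 ± 0.07 in hypothalamus, and did not pass between hippocampus and prefrontal cortex (0.08 ± 0.06).

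Growth control genes of the insulin-like growth factor system gave mixed results. Igf2, the growth factor, had 827 CPM in the LP and 451 CPM in the NP hypothalamus. It had 53.4 CPM (male LP), 49.4 CPM (female LP) and 38.2 CPM (male NP) in hippocampus. Prefrontal cortex had 53.5 CPM (male LP), 82.9 CPM (female LP), 73.4 CPM (male NP) and 70.3 CPM (female NP). Igf2 was higher in hypothalamus by 3.23 ± 0.18 against prefrontal cortex (adjusted p = 9.05e-11) and by 3.84 ± 0.18 against hippocampus (adjusted p = 9.56e-12). H19, the noncoding RNA next to it, had 78 counts in the LP and 51 in the NP hypothalamus, 3 counts over the 3 hippocampus libraries and 8 over the 4 prefrontal cortex libraries. The ratio of pooled counts was 21.1 against prefrontal cortex (exact 95% interval 10.4 to 49.9) and 44.3 against hippocampus (14.8 to 217), counting error only.

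Igf2 is a known product of the meninges and the choroid plexus, and markers of meninges and fibroblasts moved with it. All 9 of them (Lum, Ogn, Col1a1, Col1a2, Col3a1, Slc6a13, Slc22a6, Fmod and Aldh1a2) were higher in both hypothalamus libraries than in any other, and none was at 0 in any library. They summed to 788 CPM in the LP and 337 CPM in the NP hypothalamus, 37.6 to 55.2 CPM in the complete hippocampus libraries and 81.6 to 171 CPM in prefrontal cortex. Within prefrontal cortex the order of the 4 libraries by Igf2 was that by the marker sum, and in hippocampus the male NP library was lowest in both. Choroid plexus markers, 10 genes, summed to 61.4 CPM in the LP and 50.6 CPM in the NP hypothalamus and to 3.87 to 4.96 CPM in prefrontal cortex. In hippocampus they summed to 266 CPM (male LP), 241 CPM (female LP) and 155 CPM (male NP), which is the order of Igf2 within that region. Most of these hippocampus sums was Ttr (206, 184 and 103 CPM), which had 2.35 CPM in the LP and 3.22 CPM in the NP hypothalamus. Of the 10 markers, 8 had their highest mean in hippocampus and 2 in hypothalamus. Clic6, 1 of these 2, had 26.4 and 26.3 CPM in the LP and NP hypothalamus, against 4.75 to 6.54 CPM in hippocampus. The part of meningeal or choroid plexus tissue in the Igf2 and H19 differences was not tested.

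**Figure D3:**
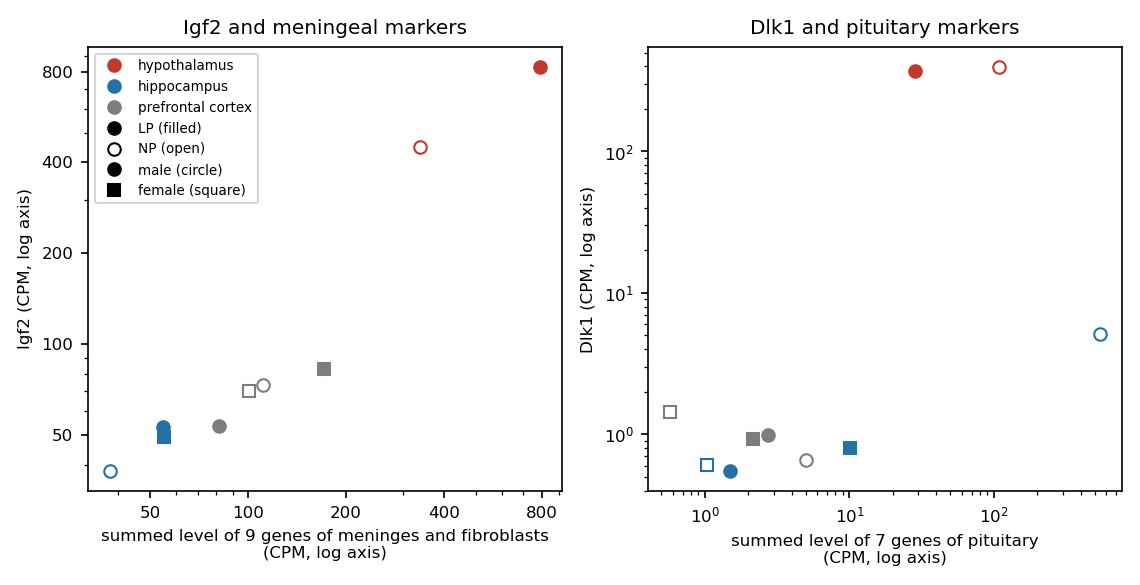
Left, Igf2 against the summed level of 9 meningeal and fibroblast markers in 9 libraries; right, Dlk1 against the summed level of 7 pituitary markers counted in all 10 libraries; all axes are in CPM and logarithmic, with colours and symbols for region, diet and sex. Igf2 is highest where the meningeal sum is highest (788 CPM in the LP hypothalamus); in the right panel the hippocampus library with 546 CPM of pituitary markers is the one with 5.14 CPM of Dlk1.

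Other members of the growth group were Igf2r, Grb10, Plagl1 and Cdkn1c. Igf2r, the receptor that clears IGF2, had 56.7 and 41.8 CPM in hypothalamus, 48.9 to 58.6 CPM in hippocampus and 39.0 to 45.7 CPM in prefrontal cortex, and hypothalamus did not pass against either. Grb10, an adaptor of insulin and IGF receptors, had 207 and 210 CPM in the LP and NP hypothalamus, 23.4 to 25.6 CPM in hippocampus and 49.9 to 58.4 CPM in prefrontal cortex, so no regions overlapped. It was higher by 1.95 ± 0.07 against prefrontal cortex (adjusted p = 8.21e-12) and by 3.09 ± 0.07 against hippocampus (adjusted p = 9.95e-14). Plagl1, a zinc finger transcription factor gene, was higher by 2.19 ± 0.11 against prefrontal cortex and by 2.87 ± 0.11 against hippocampus. Cdkn1c, an inhibitor of the cell cycle, had 8.08 and 5.08 CPM in hypothalamus and 5.49 to 8.20 CPM in prefrontal cortex, which overlapped, against 1.66 to 2.24 CPM in hippocampus. It differed by 1.84 ± 0.23 from hippocampus (adjusted p = 2.62e-06), and 30.7% of its exon bases are shared with an annotated gene on the opposite strand.

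The remaining loci that were higher in hypothalamus against both regions were Nap1l5, Impact, Zdbf2, Gnas and Inpp5f. Nap1l5, of the nucleosome assembly protein family, had 1164 and 1294 CPM in the LP and NP hypothalamus, 188 to 197 CPM in hippocampus and 275 to 289 CPM in prefrontal cortex. Impact, an inhibitor of the translation-control kinase GCN2, had 609 and 696 CPM, 155 to 169 CPM and 196 to 221 CPM in the same regions. Zdbf2 had 129 and 131 CPM in hypothalamus, 10.7 to 16.4 CPM in hippocampus and 14.4 to 15.6 CPM in prefrontal cortex. None of these 3 genes overlapped between hypothalamus and the rest, with log2 differences against prefrontal cortex of 2.14 ± 0.06 for Nap1l5, 1.68 ± 0.07 for Impact and 3.06 ± 0.11 for Zdbf2. Gnas, which encodes the stimulatory G protein alpha subunit at a locus with several overlapping transcripts (22.0% of exon bases shared), was 2.64-fold higher than in prefrontal cortex (adjusted p = 6.84e-08), and by 1.89 ± 0.12 on the log2 scale higher than in hippocampus. The shared bases lie in genes on the opposite strand, which the kit does not mark, so the Gnas counts are uncertain. Inpp5f, an inositol phosphatase gene, was higher by 0.98 ± 0.06 against prefrontal cortex and 0.39 ± 0.06 against hippocampus.

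Small or unstable differences made up the rest. Mest, a protein with a hydrolase fold, had 23.0 and 20.5 CPM in the LP and NP hypothalamus, 15.3 to 19.2 CPM in hippocampus and 24.5 to 35.6 CPM in prefrontal cortex. It was lower in hypothalamus than in prefrontal cortex (-0.45 ± 0.10, adjusted p = 0.000689) and higher than in hippocampus (0.36 ± 0.11, adjusted p = 0.00756, lost without the NP hypothalamus library). Kcnq1ot1, the antisense noncoding RNA of the Kcnq1 locus, was higher by 0.90 ± 0.23 against prefrontal cortex (lost without the LP hypothalamus library) and did not pass against hippocampus (0.31 ± 0.22). Commd1 (0.29 ± 0.12) and Trappc9 (0.14 ± 0.06), a trafficking complex subunit, passed against prefrontal cortex, but lost the call under 12 and 13 of 16 alternatives, and neither passed against hippocampus. Peg12 had 21 counts over both hypothalamus libraries, 11 over 3 hippocampus libraries and 5 over 4 prefrontal cortex libraries, and Phlda2 at most 2 counts in any library.

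Levels of different genes were compared per kilobase of merged exon length. That length joins the exons of all annotated transcripts of a gene, so the order of genes also depends on the annotation. The counts of Snrpn are uncertain, as given above. In hypothalamus the mean was 666 CPM per kilobase for Nap1l5, 586 for Nnat, 302 for Ndn, 178 for Meg3, 131 for Snrpn, 127 for Impact and 112 for Igf2. The ranges over the 2 libraries overlapped for Snrpn, Impact and Igf2 and not between the other neighbours down to Meg3. Nap1l5 and Nnat were above 99.9% and 99.8% of 16510 genes averaging at least 10 counts over the 9 complete libraries. In prefrontal cortex the order began with Snrpn (176 CPM per kilobase), Nap1l5 (152) and Meg3 (149), of which the ranges of Nap1l5 and Meg3 overlapped, and Nnat had 48.6. Dlk1 averaged 67.8 CPM per kilobase in hypothalamus, 0.314 in hippocampus and 0.177 in prefrontal cortex. Kcnq1ot1 had at most 0.0616 CPM per kilobase in any hypothalamus library, over an annotated exon length of 93092 bases.

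By expressed allele, 15 of 19 tested paternal members and 10 of 13 tested maternal members were higher in hypothalamus than in prefrontal cortex, with median log2 differences of 2.14 and 0.29, while 34.8% of all genes tested were higher and their median was 0.05. Against hippocampus 15 of 19 paternal and 10 of 13 maternal members were higher, with medians of 2.17 and 0.95, while 32.4% of all genes were higher and their median was 0.04. The maternal counts include H19, Asb4 and Calcr, which had to differ. Without them 7 of 10 maternal members were higher in either comparison, with medians of 0.22 against prefrontal cortex and 0.67 against hippocampus. The difference between the allele groups was not tested. Genes of a cluster share control regions and are not independent of each other.

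Hippocampus and prefrontal cortex differed less, and more members were lower in hippocampus than higher. Of 35 tested members, 7 were higher in hippocampus (27.4% of all genes tested), 15 were lower (26.6% of all genes tested) and 13 did not pass, with a median log2 difference of -0.21 (-0.01 over all genes). Higher in hippocampus were Nnat (above), Zim1 (0.71 ± 0.16), Ube3a (0.67 ± 0.07), Kcnq1ot1 (0.60 ± 0.22), Inpp5f (0.59 ± 0.05), Igf2r (0.35 ± 0.07) and Peg3 (0.31 ± 0.07). The lower members were led by Cdkn1c (-1.92 ± 0.20, adjusted p = 6.55e-07), Grb10 (-1.14 ± 0.06, adjusted p = 2.69e-09) and Mest (-0.81 ± 0.09, adjusted p = 8.9e-07). In the Dlk1-Dio3 cluster 5 of 6 members were lower in hippocampus, namely Mirg (-0.72 ± 0.08), Dio3 (-0.63 ± 0.16), Begain (-0.58 ± 0.05), Rian (-0.49 ± 0.04) and Meg3 (-0.35 ± 0.05). The sixth, Dlk1, did not pass (0.87 ± 0.60). The male NP hippocampus library alone held 62 of its 85 hippocampus counts, and without that library the difference was -0.67, while without the male LP hippocampus library it passed as higher. Plagl1, Igf2, Nap1l5, Gnas, Impact, Peg10 and Snrpn were also lower, by 0.20 to 0.68 on the log2 scale. The calls of Kcnq1ot1, Peg10, Igf2, Dio3 and Snrpn were each lost under at least 1 alternative.

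For the parental diet nearly all imprinted genes had no call. Over the 5 pairs, with region and sex as strata, 1 of 35 tested members was higher in LP (Mest) and 0 were lower, while 0.957% of 17665 genes tested were called higher and 0.498% lower. The median log2 difference of the members was 0.04, and -0.00 over all genes tested. At an unadjusted p under 0.05 there were 9 of 35 members (25.7%) and 13.9% of all genes tested, and DESeq2 called 0 in either direction. In prefrontal cortex alone 1 of 16 tested members was higher in LP (Nnat) and 0 were lower (0.987% and 0.775% of all genes), with 4 at an unadjusted p under 0.05 (13.3% of all genes) and 0 by DESeq2. In hippocampus alone 0 of 16 passed in either direction (0.213% of all genes higher, 0.111% lower), with 3 at an unadjusted p under 0.05 (5.82% of all genes) and 0 by DESeq2. The 21 members on chromosomes 6 and 7, Mest among them, were not part of these single-region fits, which took only genes measured in all 10 libraries. All prefrontal cortex libraries did measure them, so the count for that region leaves them out.

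Mest had 35.0 CPM in the LP and 24.5 CPM in the NP library of male prefrontal cortex, and 35.6 against 25.4 CPM in female prefrontal cortex. In male hippocampus it had 19.2 CPM in LP and 15.3 CPM in NP, and in hypothalamus 23.0 CPM in LP and 20.5 CPM in NP. LP was higher in all 4 pairs in which Mest was measured on both sides, and in hypothalamus the counting interval of the ratio included 0 on the log2 scale (-0.04 to 0.38). The fitted difference was 0.37 ± 0.08 (adjusted p = 0.0342). It did not pass with DESeq2, without the low-count filter, or without the male prefrontal cortex, female prefrontal cortex, male hippocampus or female hippocampus libraries, and its adjusted p ranged from 0.00764 to 0.314. Mest shares 23.1% of its exon bases with Copg2 on the opposite strand.

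Nnat had 95.7 CPM in LP and 73.8 CPM in NP of male prefrontal cortex, and 103 against 83.2 CPM in female prefrontal cortex. In that region the fitted difference was 0.34 ± 0.06 (adjusted p = 0.00758). The call was lost with DESeq2, without the filter and without the male prefrontal cortex pair, with adjusted p from 0.000243 to 0.173. In the male hippocampus pair Nnat had 272 CPM in LP and 249 CPM in NP, in the female pair 296 and 287 CPM, and in hypothalamus 1109 and 1036 CPM. LP was thus higher in all 5 pairs, for 1 of the 16 members with 5 pairs and 6.52% of all such genes, while 0 of 16 members were lower in all 5 (6.08% of all such genes). Over all pairs Nnat reached 0.18 ± 0.05 (adjusted p = 0.104). The oligodendrocyte markers counted in all 10 libraries, Mbp and Mog (neither at 0 in any library), were lower in LP in both prefrontal cortex pairs. They summed to 903 CPM in LP against 1274 CPM in NP of the male pair and to 805 CPM in LP against 942 CPM in NP of the female pair. In male hippocampus they were higher in LP (2881 CPM against 2500 CPM in NP), and in hypothalamus lower (1716 CPM against 2308 CPM in NP). Mest and Nnat were higher in LP in both of these pairs. In female hippocampus the markers were lower in LP (2827 CPM against 3157 CPM in NP) and Nnat was higher, while Mest was not measured in NP. Their part in the diet differences of Mest and Nnat was not tested.

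**Figure D4:**
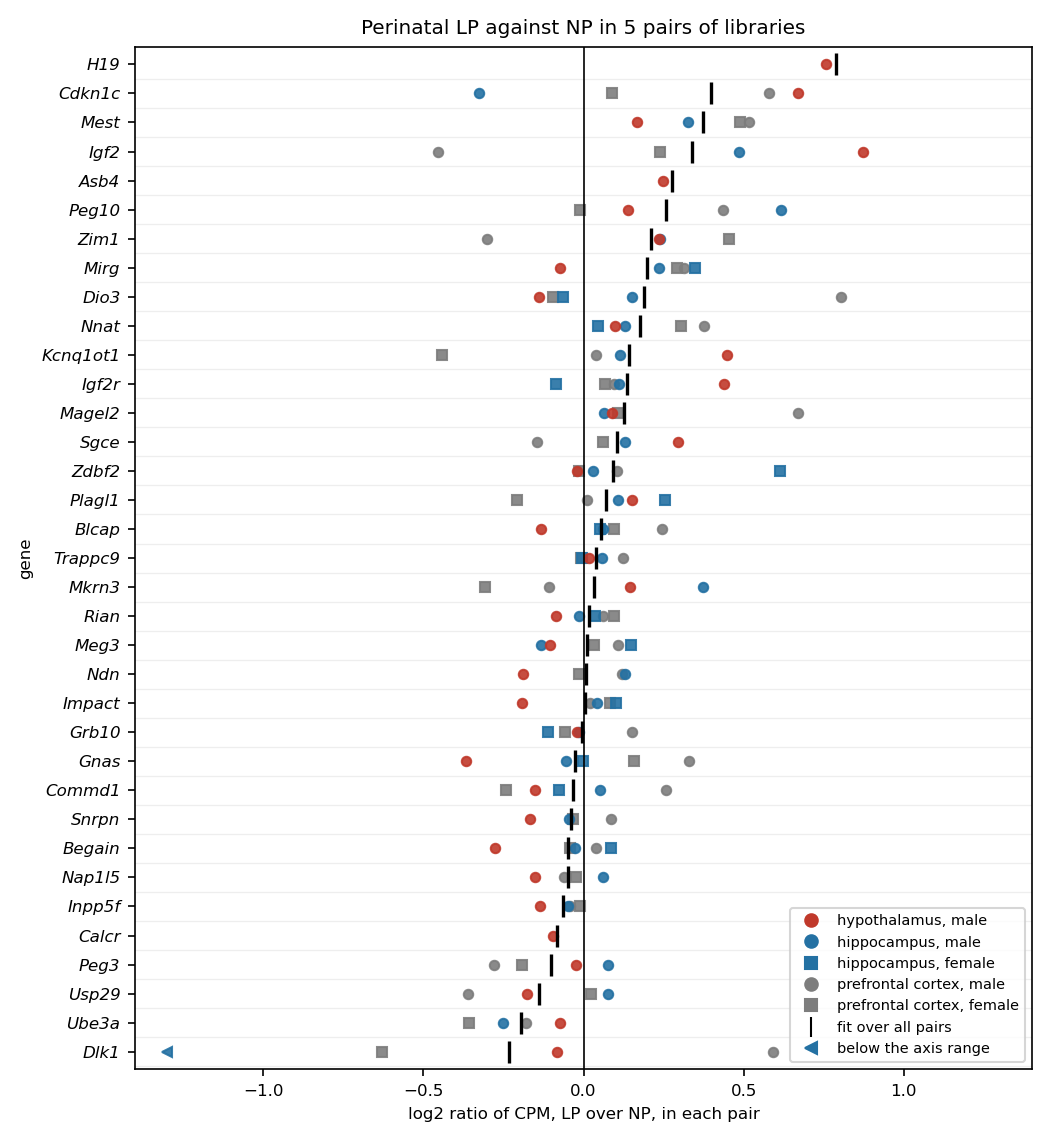
Log2 ratio of LP over NP in each pair of libraries for the 35 tested members (pairs with at least 20 counts), with the fitted difference over all pairs as a black bar. Mest, Nnat and Magel2 lie right of 0 in every pair shown, and most other genes have pairs on both sides; the ratio of Dlk1 in male hippocampus (-3.22) lies beyond the left edge.

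Among the 19 members measured in 4 complete pairs, LP was higher in all 4 for Mest and Magel2 (10.2% of all genes with 4 pairs) and lower in all 4 for Ube3a and Inpp5f (10.3%). Ube3a had an adjusted p of 0.168 for its difference of -0.20 ± 0.06, and Magel2 and Inpp5f had 0.617 and 0.609. Dlk1 had 7 counts in LP and 62 in NP of male hippocampus, and 9 in LP and 7 in NP of female hippocampus, so the pairs went opposite ways. The fitted difference of -2.12 ± 0.48 in hippocampus had an adjusted p of 0.104, was -3.20 and called without the female pair, and was 0.41 without the male pair. The male NP library with the 62 counts is the one in which 8 pituitary markers summed to 547 CPM, against 2.21 CPM in the male LP library. There Gh, Prl, Tshb, Cga, Lhb, Fshb and Pou1f1 had counts and Tbx19 was at 0. The part of pituitary tissue in the Dlk1 value was not tested.

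Hypothalamus had a single pair, so its diet differences have no replicate check. The code in the LP library's title differs, after its first number, from the code that all other titles share apart from leading zeros. What the code stands for is not given, and in this pair it cannot be told apart from diet. Of 36 members with at least 20 counts in the pair, 16 had a higher level in LP and 20 in NP. The exact 95% interval of the ratio, which covers counting error only, lay above 0 for 10 members and below 0 for 12. Over all 17323 genes with at least 20 counts these shares were 16.5% and 14.8%. The interval narrows as counts rise, and those genes were not matched to the members in level. Igf2 had the highest log2 ratio, at 0.87 (interval 0.83 to 0.91), followed by H19 at 0.76 (0.23 to 1.295) and Cdkn1c at 0.67 (0.28 to 1.07). The summed meningeal markers had a log2 ratio of 1.22 in the same pair, with 9 of 9 higher in LP, and were lower in LP of male prefrontal cortex (-0.45, 1 of 9 higher), where the Igf2 ratio was -0.45. Other marker sums also differed in the hypothalamus pair, with log2 ratios of -0.67 for hypothalamic markers (4 of 10 higher in LP), -1.88 for pituitary (4 of 8), 0.43 for endothelium (4 of 5) and 0.46 for thalamus (5 of 6). The oligodendrocyte markers Mbp and Mog summed to 1716 CPM in LP and 2308 CPM in NP. The part of tissue content in these ratios was not tested. Gnas, whose counts are uncertain because of overlapping genes, had the lowest ratio, at -0.37 (-0.46 to -0.27).

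No member passed a test of whether the diet difference itself differed between groups. For the difference between hippocampus and prefrontal cortex, 0 of 16 members passed by edgeR and by DESeq2 (0% of all 11749 genes in either direction), with 3 at an unadjusted p under 0.05 (Nnat, Dlk1 and Gnas, where 5.41% of all genes were). The largest of these in relation to its error was Nnat, with -0.25 ± 0.08 (adjusted p = 0.78). For the difference between females and males, 0 of 16 passed by either tool (0.109% of all genes higher, 0.0547% lower), with 1 (Dio3, -0.61 ± 0.27) at an unadjusted p under 0.05, where 6.47% of all genes were. These designs have 2 residual degrees of freedom and give wide intervals, and a miss does not show that the diet acted alike.

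Sex was compared in hippocampus and prefrontal cortex within strata of region and diet. Of 32 tested members 0 differed by edgeR or DESeq2 (0.329% of all genes higher in females, 0.282% lower). An unadjusted p under 0.05 was found for 3 (9.28% of all genes had one), namely Nnat (0.15 ± 0.04, adjusted p = 0.171), Igf2r (-0.16 ± 0.06, adjusted p = 0.383) and Snrpn (0.10 ± 0.05, adjusted p = 0.484). H19, Asb4, Calcr, Peg12 and Phlda2 did not pass the filter on low counts in this comparison.

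A further list of 45 imprinted or reportedly imprinted genes that are not among the 37 was tested in the same fits. The 45 genes differed less between regions in their sum than the 37 did. They summed to 3067 CPM in the LP and 3030 CPM in the NP hypothalamus. The sums were 2605 to 2682 CPM in the complete hippocampus libraries and 2487 to 2636 CPM in prefrontal cortex. Of 36 tested, 22 were higher and 4 lower in hypothalamus than in prefrontal cortex (34.8% and 29.3% of all genes), with a median log2 difference of 0.41. Against hippocampus 27 were higher and 3 lower (32.4% and 28.2% of all genes), with a median of 0.69. Against prefrontal cortex the higher genes were led by Ddc, the decarboxylase of dopamine and serotonin synthesis (4.33 ± 0.16), Qpct (2.22 ± 0.09), Snhg14 (1.34 ± 0.10) and Cd81 (0.69 ± 0.05), and the 4 lower were Cobl (-1.96 ± 0.11), Adam23 (-0.46 ± 0.06), Bcl2l1 (-0.18 ± 0.06) and Htr2a (-0.50 ± 0.20). Against hippocampus they were led by Ddc (3.95 ± 0.15), Qpct (2.06 ± 0.09), Rtl1 (2.34 ± 0.14) and Cobl (2.16 ± 0.14), and the 3 lower were Rasgrf1 (-0.58 ± 0.06), Adam23 (-0.31 ± 0.06) and Copg2 (-0.32 ± 0.07). Between hippocampus and prefrontal cortex 6 were higher and 19 lower (27.4% and 26.6% of all genes), led by Rasgrf1 (0.75 ± 0.05), Casd1 (0.51 ± 0.06), Copg2 (0.44 ± 0.06) and Snhg14 (0.64 ± 0.09), and by Cobl (-4.11 ± 0.10), Osbpl5 (-0.80 ± 0.09), Peg13 (-0.36 ± 0.04) and Slc22a3 (-2.16 ± 0.25). For diet over 5 pairs Ago2, an Argonaute protein gene, was the 1 of 36 that passed (0.957% of all genes were higher; 0.24 ± 0.04, adjusted p = 0.0119), and it also passed in prefrontal cortex (0.27 ± 0.06, adjusted p = 0.0372). No gene of this list passed for sex by edgeR, where 3 of 33 had an unadjusted p under 0.05.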

How the data were processed

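RNA libraries (TruSeq, a kit that does not mark strand) were made from total RNA of dissected brain regions, per the labels' protocols. The submitters' processing notes name CASAVA, FastQC 0.10.1, STAR 2.5.0a and the mm10 genome. The deposited values are raw counts by Ensembl gene ID; which tool counted them, and with what strand setting, the sources used here do not say. All 10 columns were used. Overlapping and antisense genes are uncertain.

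TMM factors came from 28131 genes measured in all libraries; 19598 genes were not measured in the female NP hippocampus library and were fitted without it, and they take no part in the single-region diet tests or in the tests of diet differences. Genes were kept by filterByExpr (minimum count 10) and tested with the quasi-likelihood F test of edgeR 4.0.16 (R 4.3.3), its common dispersion taken from the top 5% of genes by abundance, with p-values of both gene sets adjusted together. Standard errors were derived from the F statistic. Residual degrees of freedom were 4 for diet, 2 within regions, 5 for regions and 3 for sex, and 1 fewer for genes fitted in 9 libraries. CPM used the same scaled sizes; intervals are exact binomial at 95%. Alternatives were RLE scaling, DESeq2 1.42.0, no filter, edgeR's earlier method, a block of sex and diet, male libraries only, and leaving out libraries or pairs. The scripts were tested on simulated data. The genes, lists and tests were chosen with earlier results of these data known; every member is accounted for, and other imprinted genes are named as the 4 with the smallest p in each direction.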

Additional observations from a re-analysis of the deposited data

Results flagged for a closer look

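In groups of 4 libraries, a member's highest or lowest library was compared with the gap to the nearest other library. Of 48 groups of 4 (members averaging at least 10 counts, in prefrontal cortex or in hippocampus) 6 held a library that stood apart by Dixon's criterion. Chance alone meets it in about 1 in 20 groups of replicates. The 4 libraries here differ in sex and diet and are not replicates, so that rate need not hold. Dlk1 in the male NP hippocampus library had 5.14 CPM, against 0.552 to 0.806 CPM in the other 3, and this is the library with pituitary transcripts. Zdbf2 had 10.7 CPM in the female NP hippocampus library, which is the incomplete one, against 15.5 to 16.4 CPM. Gnas had 25.5 CPM in the male LP hippocampus library, against 26.5 to 26.7 CPM. In prefrontal cortex Magel2 had 2.73 CPM in the male LP library, against 1.53 to 1.72 CPM, or 36 counts against 16 to 21. The male NP prefrontal cortex library was lowest for Zdbf2, with 14.4 CPM against 15.5 to 15.6 CPM, and for Trappc9, with 82.3 CPM against 89.3 to 89.8 CPM. In the pair holding each library, the counting interval of the log2 LP over NP ratio was -0.28 to 0.17 for Gnas and -0.15 to 1.52 for Magel2. In prefrontal cortex it was -0.19 to 0.40 for Zdbf2 and -0.00 to 0.25 for Trappc9. In hippocampus it was -4.59 to -2.09 for Dlk1 and 0.28 to 0.95 for Zdbf2.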

How the results depend on the processing

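No called difference of an imprinted gene reversed under any alternative run. Among members without a call the sign turned under at least 1 alternative for 13 of 34 (diet over 5 pairs), 5 of 15 (diet in prefrontal cortex), 8 of 16 (diet in hippocampus), 3 of 4 (hypothalamus against prefrontal cortex), 1 of 5 (hypothalamus against hippocampus), 5 of 13 (hippocampus against prefrontal cortex) and 17 of 32 (sex). No other scaling moved the median of all genes by over 0.1 on the log2 scale. Of the members called, 26 of 31 kept the call under every alternative for hypothalamus against prefrontal cortex, 25 of 30 against hippocampus and 17 of 22 for hippocampus against prefrontal cortex. The count of members lower in hypothalamus than in hippocampus (2) was 1 in male libraries only and 1 to 3 when a library was left out. The count higher in LP over 5 pairs (1) was 0 with DESeq2 and without the filter, and 0 to 2 when a pair was left out; without the male prefrontal cortex pair it was Igf2 and not Mest that passed, and without hypothalamus Mirg joined Mest. The count higher in LP in prefrontal cortex (1) was 0 with DESeq2 and without the filter, and 0 to 1 when a pair was left out. In hippocampus the count lower in LP (0) was 1 (Dlk1) without the female pair and 0 without any other pair. Diet within regions could not be fitted without the female prefrontal cortex pair. The diet fit over 5 pairs is a paired analysis by region and sex; pairing by replicate number was not possible, because each region, sex and diet has 1 library and the labels give no such numbers.

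Hypothalamus has 2 libraries, both male, and sex is estimated from the other regions. Counts of 0 to 15 in some libraries leave H19, Calcr, Asb4, Mkrn3 and, outside hypothalamus, Dlk1 imprecise.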
